A study of Zea mays with 6 samples.

Results

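Mature pollen of plants heated early in pollen development had 64 genes that fell below 1 TPM, and this account describes them. TPM, the unit of the deposited table, is a gene's number of reads divided by its length and scaled so that each library has the same total. A gene belonged to the set when it had less than 1 TPM in each of the 3 heat libraries, at least 1 TPM in each of the 3 control libraries, and a mean in heat of at most 0.5 times its mean in control. Of 39625 gene models, 65 met these conditions, and 1 of them was set aside beforehand together with a further model that did not meet them. These thresholds used the values of both groups, so the difference between heat and control in the 64 genes is a description and carries no test.

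The heat libraries came from pollen of the maize inbred line B73 whose plants, at the tetrad stage, had spent 48 h in chambers set to 35 °C in the light and 25 °C in the dark. The control libraries came from B73 plants held at 25 °C in the light and 21 °C in the dark. Air humidity was 60% for both, both groups finished pollen development in the greenhouse, and pollen was taken when mature, so the libraries describe pollen that ripened once the heat was over. There were 3 heat and 3 control libraries, described in the labels as biological replicates of pollen.

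A mature maize pollen grain consists of a large vegetative cell, which grows the pollen tube, and the sperm cells enclosed in it. At the tetrad stage meiosis has just ended and the microspores still lie together, before the pollen-specific programme of transcription begins. Mature pollen carries a restricted set of transcripts, many of them stored for germination and tube growth, so a gene near 1 TPM in it lies at the lower edge of what pollen contains. In bulk pollen, fewer grains that contain a transcript and less of it per grain cannot be told apart.

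Between 19086783 and 19745190 reads were recovered per heat library and between 20978638 and 28640972 per control library, so the control libraries were all deeper than the heat libraries. All 7 gene models of the vegetative cell markers (mgs1, pme1, the profilins prf1 to prf3, EXPB1 and tua1) were at 1 TPM or more in every library, and their summed level was 42330 to 44990 TPM in heat and 41870 to 44190 TPM in control. The sperm gene hap2 had 6.88 to 7.99 TPM in heat and 5.78 to 7.47 TPM in control. Of 6 gene models of green leaf markers, 5 were under 1 TPM in all libraries, and they summed to 0.502 to 1.19 TPM in heat and 0.867 to 1.60 TPM in control. The 4 gene models of tapetum and anther wall markers summed to 4.02 to 4.49 TPM in heat and 2.66 to 3.33 TPM in control, so the groups did not overlap in this sum. Most of it came from ms32, with a mean of 3.17 TPM in heat and 1.62 TPM in control. The other detected markers of that list had lower means in heat, ms26 with 0.886 TPM in heat and 1.25 TPM in control and ms8 with 0.162 TPM in heat and 0.197 TPM in control, while ocl4 of the same list and 1 gene model of the leaf marker pep1 were at 0 in all libraries. The part of the tapetum sum in the results was not tested. None of these markers belonged to the 64 genes.

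Names and kinds of the 64 genes came from a RefSeq gene table of a later B73 assembly, which carries symbols and no product descriptions. It matched 36 of the 64 genes (56.25%), against 68.0% of all 8615 genes tested, and 2 of the 36 matched more than 1 RefSeq gene. A symbol that was not just a locus or clone identifier was found for 8, and 2 of the 64, one of them ARGOS8, matched loci classed as transcribed pseudogenes. The matched genes lay on all 10 chromosomes, and the closest 2 of them had 28 other genes between them in the order of that assembly.

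Across the set the mean level in heat ran from 0.0786 to 0.897 TPM with a median of 0.539 TPM, against 1.13 to 4.03 TPM with a median of 1.58 TPM in control. The ratio of heat to control ran from 0.0672 to 0.494, with a median of 0.320. It was 0.25 or lower for 19 genes. A mean of at least 2 TPM in control was reached by 12 of the 64 genes, so most of the set consisted of genes that were already near the threshold in control pollen.

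**Figure D1:**
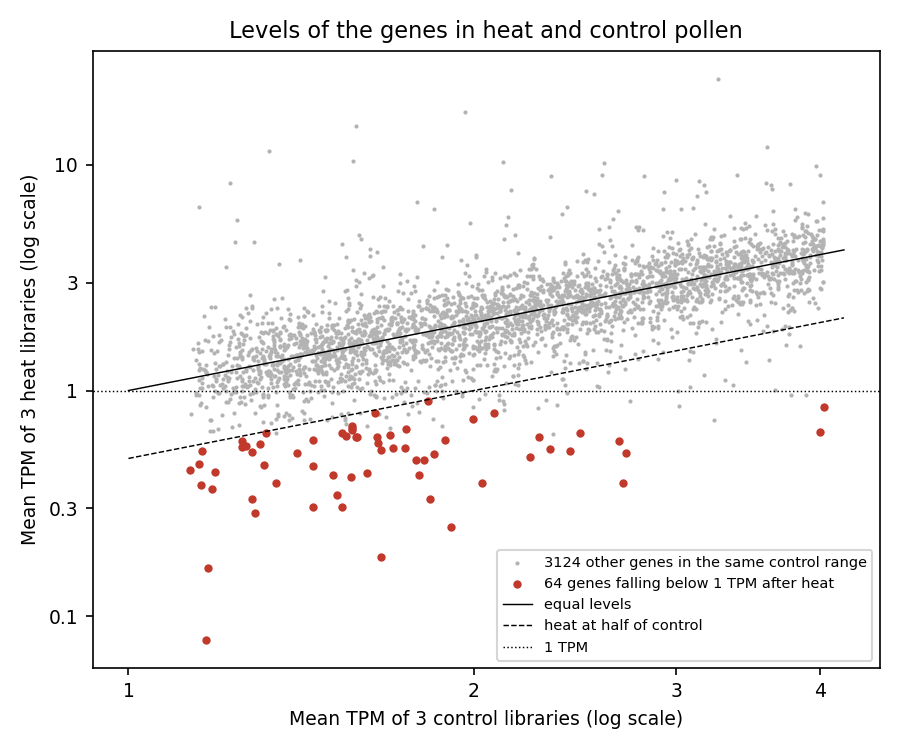
Mean TPM of the 3 heat libraries against mean TPM of the 3 control libraries, both on log scales, for the 64 genes (red) and for 3124 other genes of the same control range (grey). The red points lie under the dotted line at 1 TPM and under the dashed line at 0.5 of control, as the choice of genes requires, while the grey points centre on equal levels, with a median ratio of 1.01.

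Transcription factors were represented by 2 named genes. NAC49 (GRMZM2G347043, also called SNAC1), of the plant-specific NAC family of transcription factors, had 0.343, 0 and 0.148 TPM in heat replicates 1, 2 and 3, against 1.17, 1.01 and 1.34 TPM in control replicates 1, 2 and 3. These values rested on 7, 0 and 3 reads in heat and 35, 25 and 29 reads in control. A count of 0 reads in heat replicate 2 allows up to 0.147 TPM for this gene. NAC49 thus had the fourth lowest ratio of the set, at 0.139, and its control level was close to the threshold. Of 28 NAC gene models 4 were tested, and of the 3 other than NAC49 limma called 0, with 0 also at an unadjusted p under 0.05 and 0 in limma-voom on recovered reads. NAC120 (GRMZM2G176677), the most abundant of them, had 6.34, 7.52 and 6.38 TPM in heat, against 6.59, 6.24 and 6.67 TPM in control (limma log2 fold change of TPM + 1 0.04, SE 0.11, adjusted p = 0.825), so its groups overlapped.

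GRF13 (GRMZM2G018414) belongs to the growth-regulating factors, transcription factors known from leaves for promoting cell proliferation. It had 0.802, 0.445 and 0.538 TPM in heat replicates 1, 2 and 3, against 2.28, 2.72 and 3.02 TPM in control replicates 1, 2 and 3. Its mean was 0.595 ± 0.185 TPM in heat and 2.67 ± 0.37 TPM in control (SD, n = 3 each), a ratio of 0.223. Its highest heat library lay 1.48 TPM under its lowest control library, the widest such gap among the 8 named genes. GRF13 was the fifth most abundant gene of the set in control.

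The other growth-regulating factor genes were examined because of GRF13, after the values had been seen. Of 16 such gene models 5 were tested. Of the 4 that were not in the set limma called 2 lower, where it called 7.15% of all 8615 genes lower. It called 0 of the 4 higher, against 1 at an unadjusted p under 0.05 and 1 in limma-voom on recovered reads, both times GRF14. GRF10 (GRMZM2G096709) fell to 1.24, 1.08 and 0.869 TPM in heat, against 3.17, 3.21 and 3.71 TPM in control (log2 fold change of TPM + 1 -1.08, SE 0.13, adjusted p = 9.45e-05). This gene kept its call under every alternative. GRF2 (GRMZM2G099862) fell to 1.12, 0.606 and 1.19 TPM in heat, against 2.40, 2.33 and 2.51 TPM in control (log2 fold change -0.80, SE 0.14, adjusted p = 0.00171). The call of GRF2 was lost when the sequencing lane was added to the model (log2 fold change -0.64). That model sets heat replicate 3 alone against the controls, because heat replicates 1 and 2 shared no lane with a control.

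In both GRF10 and GRF2 every heat library was lower than every control library, and each missed the set only because 2 of its heat libraries were above 1 TPM. GRF4 (GRMZM2G004619) had 1.09, 1.91 and 1.51 TPM in heat, against 1.59, 1.92 and 1.51 TPM in control (limma log2 fold change -0.11, SE 0.15, adjusted p = 0.668). GRF14 (GRMZM2G098594) had 1.81 ± 0.30 TPM in heat and 1.14 ± 0.30 TPM in control (log2 fold change 0.40, SE 0.14, adjusted p = 0.0699, and 0.211 without control replicate 3). It passed the threshold without heat replicate 1 (adjusted p = 0.0412) and in limma-voom (adjusted p = 0.048). Reads that fit several members of a family may have been shared among them in the counting, and the sources used here do not state the rule for such reads.

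**Figure D2:**
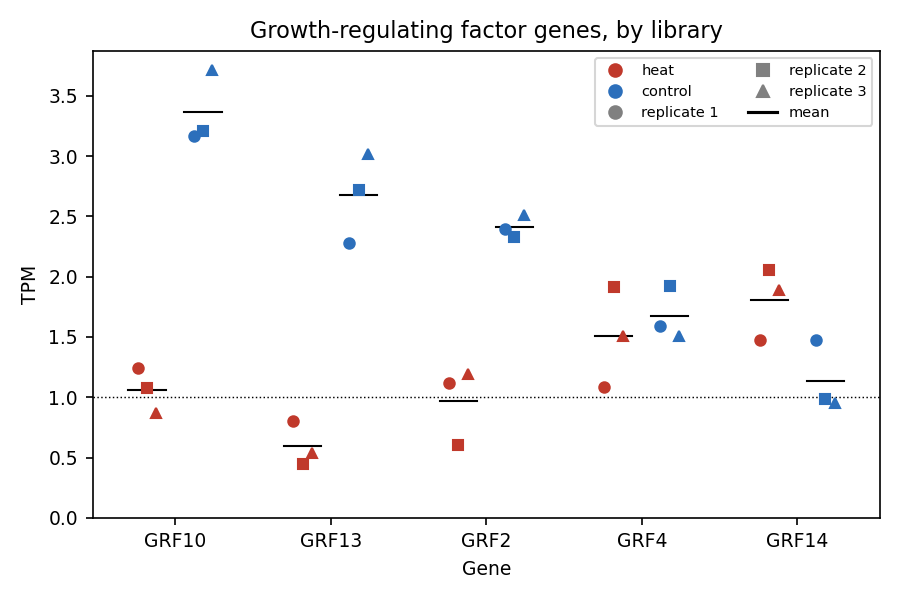
TPM of the 5 tested growth-regulating factor genes in each heat library (red) and each control library (blue), with the mean of each group as a black line and 1 TPM as a dotted line. GRF10, GRF13 and GRF2 have all heat libraries below all control libraries, while the groups overlap for GRF4 and meet at 1.48 TPM for GRF14, whose heat libraries are the higher ones.

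Chromatin was represented by mez2 (GRMZM5G875502), one of the maize homologues of Enhancer of zeste, the histone methyltransferase of Polycomb repressive complexes. It had 0.688, 0.306 and 0.487 TPM in heat replicates 1, 2 and 3, against 1.62, 1.16 and 2.57 TPM in control replicates 1, 2 and 3. The control libraries of mez2 spread more than those of the other named genes, with a mean of 0.494 ± 0.191 TPM in heat and 1.78 ± 0.72 TPM in control (SD, n = 3 each). The other Enhancer of zeste genes were low in pollen in both groups. mez1 (GRMZM2G157820) had 0.161 TPM in heat and 0.351 TPM in control, and mez3 (GRMZM2G043484) had 0.00875 TPM in heat and 0.0214 TPM in control on average, so neither was tested. Other Polycomb genes were not lower in heat. EMF-like (GRMZM2G157422) had 1.124, 1.815 and 1.248 TPM in heat, against 1.063, 1.047 and 1.004 TPM in control. limma did not call EMF-like (log2 fold change 0.22, SE 0.14, adjusted p = 0.291). The untested fie2 (GRMZM2G148924) had 0.0969 TPM in heat and 0.0792 TPM in control, and fie1 (GRMZM2G118205) had 0 in all libraries.

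Hormone signalling was represented by PYL2 (GRMZM2G134731), of the family of abscisic acid receptors, and ARGOS8 (GRMZM2G354338), of a family that lowers the response to ethylene in maize. PYL2 had 0.630, 0.881 and 0.571 TPM in heat replicates 1, 2 and 3, against 1.29, 1.92 and 1.48 TPM in control replicates 1, 2 and 3. With a ratio of 0.443 it changed least of the 8 named genes. ARGOS8 had 0.372, 0.495 and 0.125 TPM in heat replicates 1, 2 and 3, against 1.01, 1.43 and 1.40 TPM in control replicates 1, 2 and 3. These ARGOS8 values rested on 3, 4 and 1 reads in heat and 12, 14 and 12 reads in control.

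Relatives of both genes were again examined after the values had been seen. Of the 3 tested abscisic acid receptor genes outside the set limma called 1 higher, and it called 13.0% of all genes tested higher. It called 0 of the 3 lower, with 0 also at an unadjusted p under 0.05 and 0 in limma-voom. PYL9 (GRMZM2G048733) had 5.02 ± 1.20 TPM in heat and 2.95 ± 0.28 TPM in control (log2 fold change 0.59, SE 0.15, adjusted p = 0.0127). The PYL9 call was lost when the lane was added to the model, which left heat replicate 3 alone against the controls (log2 fold change 0.42). It was also lost without a filter on low values (adjusted p = 0.0531) and without control replicate 3 (adjusted p = 0.0535). Both tested ARGOS genes outside the set were called higher. ARGOS6 (GRMZM2G162250) rose to 8.36, 8.18 and 7.90 TPM in heat, against 3.64, 3.02 and 2.86 TPM in control, and was called under every alternative. ARGOS9 (GRMZM2G082943) had 18.1 ± 2.07 TPM in heat and 13.7 ± 0.31 TPM in control (log2 fold change 0.37, SE 0.10, adjusted p = 0.0197). The ARGOS9 call was lost when the lane was added (log2 fold change 0.32, heat replicate 3 alone against the controls) and without a filter (adjusted p = 0.06). It was also lost without heat replicate 2 (adjusted p = 0.0774), without control replicate 1 (adjusted p = 0.075) and without control replicate 3 (adjusted p = 0.0507).

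Metabolism and the cytoskeleton were represented by 1 named gene each. PPCK2 (GRMZM2G135091) encodes a kinase that phosphorylates phosphoenolpyruvate carboxylase and so makes that enzyme less sensitive to inhibition by malate. It had 0.873, 0.349 and 0.527 TPM in heat replicates 1, 2 and 3, against 1.55, 1.58 and 1.81 TPM in control replicates 1, 2 and 3. Of the related kinase genes PPCK4 (GRMZM2G049541) was under the filter, with 0.766 ± 0.232 TPM in heat and 0.594 ± 0.047 TPM in control. The kinesin gene kin11 (GRMZM2G436981), of the motor proteins that move along microtubules, had 0.798, 0.399 and 0.375 TPM in heat replicates 1, 2 and 3, against 1.96, 1.67 and 1.90 TPM in control replicates 1, 2 and 3. Of the 4 tested kinesin genes outside the set, also examined after the values had been seen, limma called 1 lower, kin2 (GRMZM2G136838), where it called 7.15% of all genes tested lower. At an unadjusted p under 0.05 there were 2, the second being kch5 (GRMZM2G171279; log2 fold change -0.19, SE 0.08, adjusted p = 0.117, and 0.0439 to 0.32 over the alternatives), which passed the threshold after median-ratio scaling and without heat replicate 1 (adjusted p = 0.0449). This kin2 gene model, GRMZM2G136838, had 2.89, 3.08 and 2.70 TPM in heat, against 4.68, 3.43 and 4.99 TPM in control (log2 fold change -0.45, SE 0.14, adjusted p = 0.0346). The kin2 call was lost when the lane was added, which left heat replicate 3 alone against the controls (log2 fold change -0.52, larger in size). It was also lost without a filter (adjusted p = 0.0989), without heat replicates 1, 2 or 3 (adjusted p = 0.0563, 0.0558 and 0.106) and without control replicates 1 or 3 (adjusted p = 0.128 and 0.141). A second gene model named kin2 (GRMZM2G180704) was more abundant and was not called (log2 fold change 0.10, SE 0.085, adjusted p = 0.48). It had 43.9 ± 1.95 TPM in heat and 41.0 ± 3.42 TPM in control. The 3 tested kinesin genes outside the set other than GRMZM2G136838 were far more abundant than kin11. Among them was kin9 (GRMZM5G881464), with 60.4 ± 5.16 TPM in heat and 54.5 ± 6.75 TPM in control (SD, n = 3 each).

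The last named gene, gpb1 (GRMZM5G845611), had 0.434, 0.0434 and 0.437 TPM in heat replicates 1, 2 and 3, against 1.63, 1.22 and 1.76 TPM in control replicates 1, 2 and 3. A single read stood behind the value of heat replicate 2. Its ratio of 0.199 was the second lowest among the named genes, after NAC49. Of the gene lists based on name patterns, that of transcription factors held 47 tested genes, of which 12 were called higher (25.5%, against 13.0% of all genes tested) and 4 lower (8.51%, against 7.15%). The median log2 fold change was 0.04 both over this list and over all genes tested. NAC49 was the 1 gene of this list in the set and is counted among the 47. Its lower value was fixed by the choice of genes, so nothing is read from the share called lower. The patterns were matched to symbols alone and did not match GRF13, mez2, PPCK2 or kin11, so that the other lists held none of the 64 genes.

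**Figure D3:**
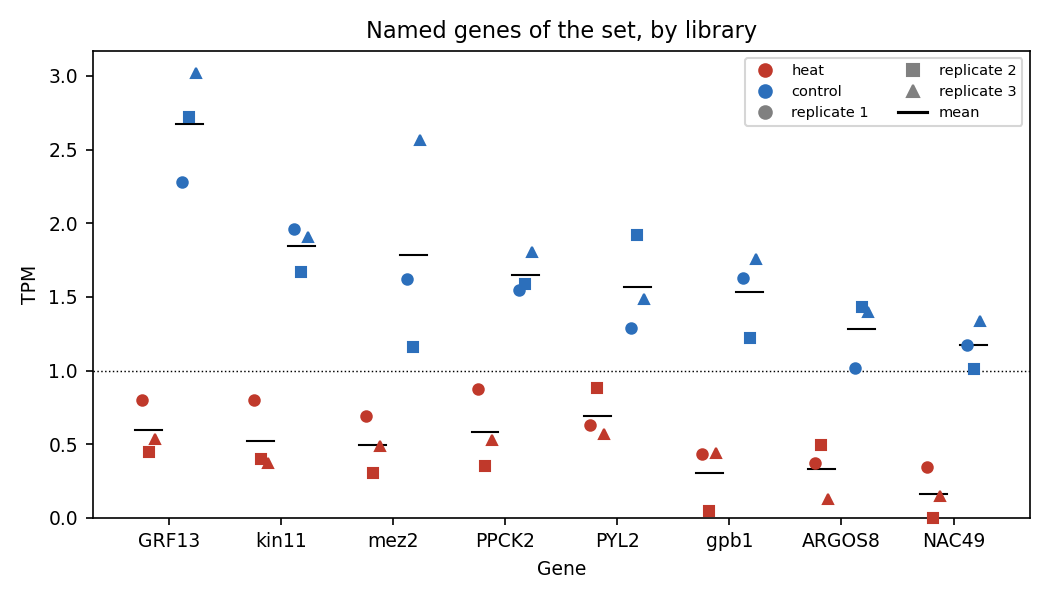
TPM of the 8 named genes in each heat library (red) and each control library (blue), with the shape marking the replicate, the black line the mean of each group and the dotted line 1 TPM. GRF13 shows the widest gap between the groups, NAC49 and gpb1 lie nearest to 0 in heat, and mez2 has the widest control values.

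Among the genes without a name, those with the lowest ratios came close to 0 after heat. GRMZM2G055446 had 0.117, 0 and 0.118 TPM in heat replicates 1, 2 and 3, against 1.00, 1.07 and 1.44 TPM in control replicates 1, 2 and 3. With 2, 0 and 2 reads in heat, against 25, 22 and 26 reads in control, it had the lowest ratio of the set, at 0.0672. The exact Poisson interval of its summed heat reads, which covers counting error only, was 1.09 to 10.2 reads at 95%.

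GRMZM2G014071 had 0.343, 0 and 0.207 TPM in heat, against 1.69, 1.58 and 1.71 TPM in control, from 10, 0 and 6 reads in heat and 72, 56 and 53 reads in control. In this gene the control libraries differed little from each other, and the ratio was 0.110. GRMZM2G591241, with a recovered length of 222 bases the shortest gene of the set, had 1, 0 and 1 reads in heat, against 7, 6 and 6 reads in control. If no common divisor remains in these reads and this length, its 0 reads in heat replicate 2 allow up to 1.12 TPM. In that case this library alone cannot place the gene under the threshold. GRMZM5G826654 came next, with 0.391 ± 0.255 TPM in heat and 2.69 ± 0.33 TPM in control (SD, n = 3 each), followed by GRMZM2G403667.

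The 2 genes with the highest control levels stood apart from the rest of the set. GRMZM2G024551 had 0.688, 0.918 and 0.924 TPM in heat, against 4.39, 3.60 and 4.11 TPM in control. GRMZM2G403667 had 0.837, 0.419 and 0.703 TPM in heat, against 3.91, 4.15 and 3.94 TPM in control. Both models are short, at 360 and 592 bases, so that these levels rested on 3 to 6 reads per heat library and 19 to 41 reads per control library. Below them the next highest control means were those of GRMZM2G092379, with 0.530 ± 0.270 TPM in heat and 2.72 ± 0.52 TPM in control, and of GRMZM5G826654 and GRF13, given above.

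Further genes among the 10 highest in control were GRMZM2G329047, GRMZM2G476538, GRMZM2G016586, GRMZM2G102365 and GRMZM2G401267. Their means lay between 0.507 and 0.649 TPM in heat and between 2.24 and 2.47 TPM in control. Genes with a ratio near 0.2 included GRMZM2G104109, with 0.493, 0.0617 and 0.434 TPM in heat, against 1.94, 1.53 and 2.03 TPM in control. GRMZM2G099324 had 0.688, 0.150 and 0.331 TPM in heat, against 2.04, 1.09 and 2.96 TPM in control, the widest control spread of the set (SD 0.936). In each of these 2 genes heat replicate 2 was the lowest library.

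**Figure D4:**
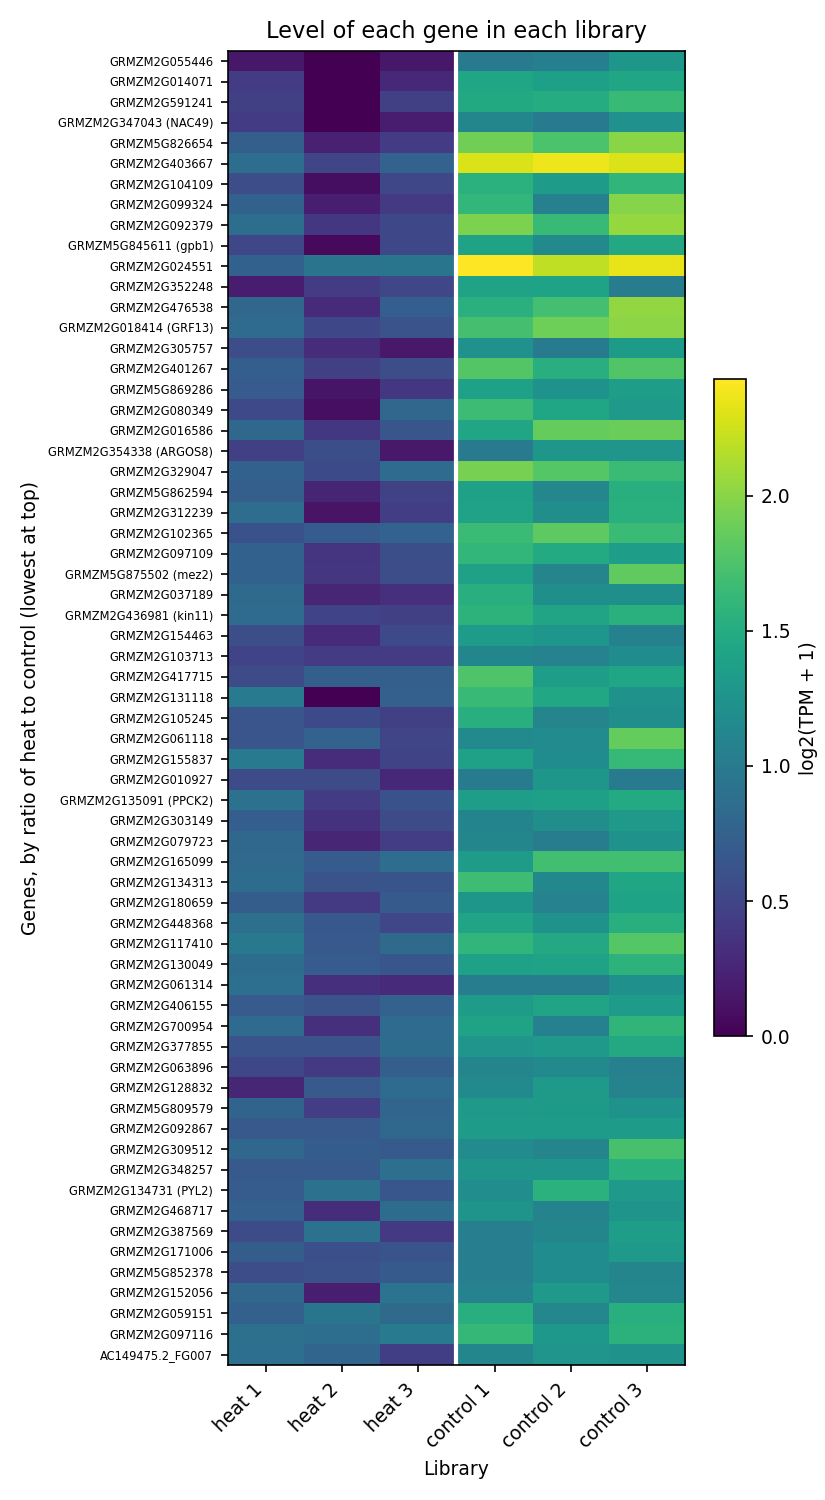
Level of each of the 64 genes, as log2(TPM + 1), in the 3 heat libraries (left) and the 3 control libraries (right), with genes ordered by the ratio of heat to control from the lowest at the top. Heat replicate 2 is the darkest column, with 5 genes at 0 reads, and the brightest control cells are those of GRMZM2G024551 and GRMZM2G403667.

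The 64 genes differed among themselves in how the heat libraries were ordered. Heat replicate 2 was the lowest heat library for 44 of them (68.8%), heat replicate 3 for 13 and heat replicate 1 for 7. Their median was 0.668, 0.349 and 0.512 TPM in heat replicates 1, 2 and 3, against 1.63, 1.44 and 1.71 TPM in control replicates 1, 2 and 3. Which heat library was lowest was not part of the choice of genes, and all 5 values at 0 reads came from heat replicate 2. Among 3124 other genes with at least 1 TPM in each control and control means in the same range, heat replicate 2 was the lowest heat library for 31.4%, heat replicate 1 for 32.2% and heat replicate 3 for 36.3%. Genes are not independent replicates, and the difference between the 64 genes and the others was not tested.

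Heat replicates 1 and 2, the highest and the lowest of the heat libraries for most of the set, were sequenced on the same 2 lanes, per the sample sheets. Heat replicate 3 was sequenced with the 3 controls on 3 other lanes and lay between them, with a median deviation from the heat mean of 0.01 on the log2(TPM + 1) scale, against 0.14 for heat replicate 1 and -0.15 for heat replicate 2. In the control group, control replicate 2 was the lowest library for 30 of the 64 genes (46.9%) and for 55.0% of the 3124 other genes. The 100 most abundant genes took 53.0% to 53.9% of TPM in the heat libraries, against 54.8% to 56.5% in the controls, with the highest share in control replicate 2. The part of this composition in the choice of the 64 genes was not tested.

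**Figure D5:**
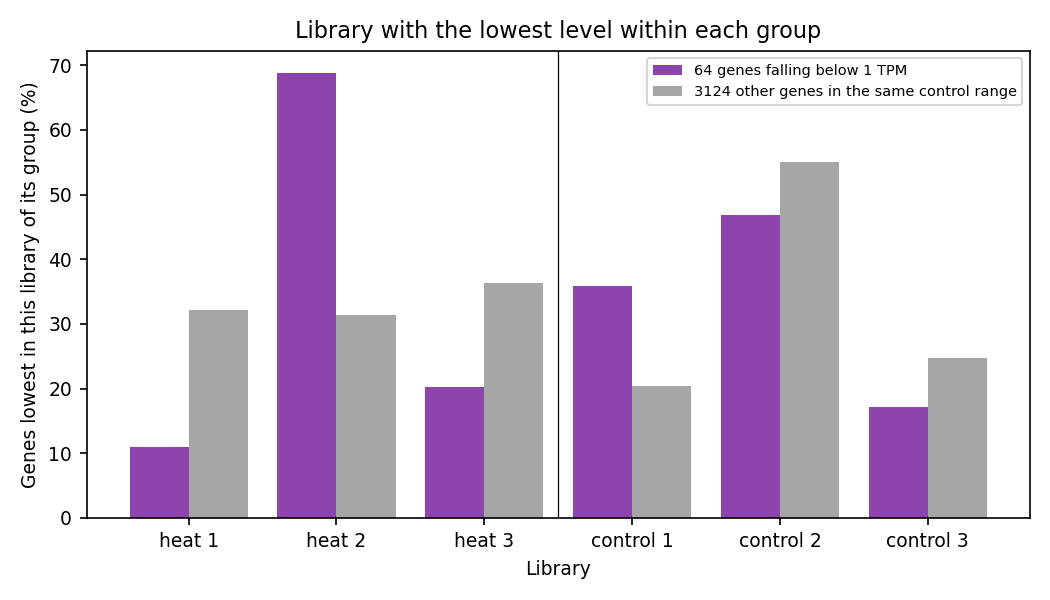
Percentage of genes whose lowest value within their group fell in each library, for the 64 genes (purple) and 3124 other genes of the same control range (grey), with heat libraries on the left and control libraries on the right. Heat replicate 2 holds the lowest heat value for 68.8% of the 64 genes and for 31.4% of the others, while control replicate 2 is the most frequent lowest control in both.

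The levels in a library left out of the choice of genes are described next. The share that other genes near 1 TPM would show in such a library was not computed, so the percentages do not test the choice. With the same thresholds applied to the other 5 libraries, 111 genes were found without heat replicate 1, and 66 of them (59.5%) were under 1 TPM in that library. Their median was 0.837 TPM in heat replicate 1 and 0.561 TPM as the mean of the other heat libraries. Without heat replicate 2, 71 genes were found and 62 (87.3%) were under 1 TPM in it, and without heat replicate 3, 74 were found and 63 (85.1%) were under 1 TPM in it. On the control side, 59 of 66 genes (89.4%) found without control replicate 3 were at 1 TPM or more in it, and 63 of 76 (82.9%) found without control replicate 1.

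Control replicate 2 stood apart here too. Of 108 genes found without it, 63 (58.3%) were at 1 TPM or more in it, with a median of 1.10 TPM there and 1.54 TPM as the mean of the other controls. The size of the set was thus limited most by heat replicate 1 and control replicate 2, the libraries in which these genes were closest to the threshold.

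Genes just inside and just outside the thresholds had similar values. GRMZM2G131118 was inside by 0.999 TPM in heat replicate 1, with 0 and 0.671 TPM in heat replicates 2 and 3, against 2.12, 1.74 and 1.36 TPM in control. The highest heat mean in the set was that of GRMZM2G097116, with 0.867, 0.839 and 0.986 TPM in heat, against 2.06, 1.46 and 1.95 TPM in control. GRMZM2G059151, GRMZM2G117410 and GRMZM2G165099 were also near the edge, with heat means of 0.796, 0.792 and 0.744 TPM. Just outside lay GRMZM2G171116, whose heat replicate 2 was at 1.001 TPM, and GRMZM5G839757, whose heat replicate 3 was at 1.005 TPM. On the control side GRMZM2G401075 was left out by 0.991 TPM in control replicate 2, although its heat mean of 0.259 TPM and control mean of 1.48 TPM would place it among the lower ratios of the set. In all, 40 genes missed the set by a single heat library and 39 by a single control library, and 27 met the level thresholds but not the ratio.

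The 64 genes were 2.01% of the 3188 genes with at least 1 TPM in each control and a control mean in the range of the set. Among the other 3124 genes of that range, 65 also had a ratio of 0.5 or lower and 19 were under 1 TPM in each heat library. The median ratio of heat to control was 1.01 over the 3124, and 1607 of those were higher in heat on average. The opposite pattern, at least 1 TPM in each heat library, under 1 TPM in each control library and a control mean of at most 0.5 times the heat mean, was found for 45 genes. The 45 were 0.586% of the 7685 genes at 1 TPM or more in each heat library, and the 64 were 0.825% of the 7755 genes at that level in each control library.

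The model fitted across all genes gave the background. All 64 genes passed its filter of at least 1 TPM in at least 3 libraries, but only through their control libraries, so they had to differ. limma called 616 of 8615 genes lower in heat (7.15%) and 63 of the 64. Among the 3188 genes of the same control range, which include the 64, it called 7.47% lower. With the lane in the model it called 219 genes lower (2.54%) and 32 of the 64, and 435 genes higher (5.05%). Heat libraries were all below control libraries for 13.3% of the genes tested, and for all 64 by construction. Since the genes were chosen on this contrast, nothing is read from these counts.

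The depth behind the values was low. The 64 genes had 0 to 46 reads in a heat library, with a median of 7.5, against 4 to 111 reads in a control library, with a median of 30.5. Of 192 heat values, 115 rested on fewer than 10 reads, while 12 control values did. Relative to the variance from counting error alone, the variance among heat libraries was 1.90 times as large in the set, against 1.81 times in the 3124 other genes. The choice of genes capped the heat values of the set under 1 TPM, and those of the others were not capped. Without heat replicate 2 the variance in the set was 1.27 times, and without heat replicate 3 it was 2.96 times, that of counting error. Among the control libraries the figures were 1.74 times in the set and 1.80 times in the others.

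Gene length was not used in the choice of the genes. The gene models of the set were shorter, with a median of 1374 bases and quartiles of 870 and 1948 bases, than the 3124 other genes, with a median of 1834 bases and quartiles of 1272 and 2482 bases. They ranged from 222 to 3850 bases as recovered, where a common divisor may remain for low genes. A shorter gene has fewer reads at the same TPM, and the part of this in the choice of genes was not tested.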

How the data were processed

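RNA sequencing of mature pollen was analysed in 3 heat and 3 control libraries. The authors deposited TPM per gene model, used here as deposited. STAR 2.5.2a, Trimmomatic 0.35, DESeq2, featureCounts and FastQC are listed with the build B73 RefGen_v3 per the submitters' processing notes; the sources used here state neither their roles nor the strand setting and the treatment of shared reads. Whole reads and gene lengths were recovered from the ratios of TPM between libraries for all 24654 gene models above 0, within 0.01 reads; for low genes a common divisor may remain. Heat was set against control with limma 3.58.1 in R 4.3.3 on log2(TPM + 1), with an intensity trend, two-sided, Benjamini-Hochberg adjustment over 8615 genes (at least 1 TPM in at least 3 libraries) and a threshold of 0.05, which understates changes of low genes. Every adjusted p comes from this fit unless another is named. The method was tested on simulated data. No 2 replicates agreed within sampling noise (smallest chi-square 4.59 times its degrees of freedom).

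The genes, the lists and the tests were chosen with earlier results of these data known. Named are all genes of the set with a symbol, the 10 highest in control, the 10 lowest ratios and up to 5 genes on each side of the thresholds. Families of the named genes were added after their values were seen. Control replicates 1, 2 and 3 and heat replicate 3 shared lanes, so the lane and heat are partly confounded. With the lane in the model, the heat estimate is heat replicate 3 against the 3 controls, and heat replicates 1 and 2 do not enter it. The alternatives were other pseudocounts, filters, scalings, thresholds, a replicate block, the lane and each library left out. Names came from RefSeq (assembly Zm-B73-REFERENCE-NAM-5.0). Intervals and limits from 0 reads (3 reads) cover counting error only.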

Additional observations from a re-analysis of the deposited data

How the results depend on the processing

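The set held 64 genes as defined, 38 with a threshold of 2 TPM (7 of them in the set), 19 with a heat mean of at most 0.25 of control, 81 with a threshold of 0.5 TPM (12 in the set), 71 after median-ratio scaling (61 in the set), 91 without the condition on the ratio, and 93 in TPM recomputed without the 100 most abundant genes (7 in the set). With single libraries left out it ran from 66 to 111 genes. The median log2 ratio over the set was -0.78 with a pseudocount of 1, -1.47 with 0.1 and -0.26 with 5, and -0.84 to -0.71 with single libraries left out. limma called 1739 genes, 654 when the lane was added to the model, 1207 without a filter and 1863 with limma-voom on recovered reads, chosen after seeing the data. Of the 64 genes it called 63, against 32 with the lane and 49 without a filter. With single libraries left out, 1218 to 1820 genes and 54 to 62 of the 64 passed. Same-numbered heat and control libraries did not deviate together in every pair (correlations 0.12, 0.13 and -0.05), so the numbers were not taken as pairs. With a replicate block 1785 of 8615 genes passed, 667 of them lower, and all 64 did. TPM without the 100 most abundant genes is higher for every other gene, because those held 53.0% to 56.5% of TPM. A threshold of 1 TPM there is thus a lower one on the deposited scale. The causes of the other moves were not tested. Depth limits every value under about 10 reads.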
